A study of Rattus norvegicus with 2 samples.

Results

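The thyroid hormone receptors and the proteins they work with are the subject here: the receptors Thra and Thrb, their dimer partners Rxra and Rxrb, the corepressor complex genes Ncor1, Hdac3 and Tbl1x, the coactivator genes Ncoa1 and Ncoa3, and the Mediator subunit gene Med1. The members are these 10 genes, and each probe set whose gene symbol in the authors' table of all ratios is one of them was taken, after removal of the ending that marks a predicted or mapped gene. This gave 26 of 31038 probe sets. Probe sets were taken by gene symbol alone, though the member genes were chosen with earlier results of these data known. RNA came from primary hepatocytes, the parenchymal cells of the liver in short-term culture, of male SD (Sprague-Dawley) rats, kept in collagen-coated wells with a growth factor-containing hepatocyte medium. One culture received 1 nM triiodothyronine (T3), the active form of thyroid hormone, for 24 h, and the control culture was left without it. No strain, genotype or age beyond this is stated in the labels, and nothing says how many animals each culture came from.

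Each culture was hybridised to 1 Affymetrix Rat Genome 230 2.0 array, so there are no replicates, no difference was tested and no p-value for a difference can be given. With 1 array each, the spread between cultures is unknown, which limits how precise any value can be. Values are MAS5 signals, array intensities that the authors had scaled to a common level, so that the trimmed mean of both arrays was 100.04 when 2% of probe sets were left out at each end. Beside each signal stands a call (present, marginal or absent) and a detection p-value that scores whether the matching probes are brighter than their mismatched partners on that array. Signals of different probe sets depend on the probes as well as on the RNA, so a level is compared only with the same probe set on the other array. Over all probe sets 55.6% were present on the T3 array and 56.7% on the control array. Of 13 hepatocyte markers the 12 named on the array were all detected, with summed signals of 17059 with T3 and 17551 in control. Bile duct markers (3 of 5 detected, sums of 2457 with T3 and 2805 in control) and stellate cell and fibroblast markers (7 of 9, 2609 with T3 and 2897 in control) were also present. Of 7 Kupffer cell and leukocyte markers 6 are named on the array and 2 were detected, with sums of 304 with T3 and 299 in control. Of 8 endothelial markers 6 are named and 1 was detected, at 5.94 with T3 and 6.79 in control. The detected ones were Cd163 and Cd14 of the Kupffer cell and leukocyte list and Tek of the endothelial list. Cd68, Clec4f, Ptprc, Adgre1, Pecam1, Kdr, Lyve1, Cdh5 and Vwf had no present call on either array. In such bulk RNA, fewer cells of a type and less RNA per cell cannot be told apart, and the part of other cell types in the values below was not tested.

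T3 enters the nucleus and binds its receptors, Thra and Thrb, which sit on DNA next to target genes, mostly paired with a retinoid X receptor (RXR). Without hormone the pair holds a corepressor complex built on Ncor1, in which Hdac3 removes acetyl groups from histones and Tbl1x helps to hold the complex together. Binding of T3 releases this complex and lets coactivators such as Ncoa1 and Ncoa3 dock, which bring in histone acetyltransferases, and Mediator, which Med1 links to the receptor and which contacts RNA polymerase. In the liver Thrb is known as the main receptor form. The comparison of T3 with control shows whether the RNA levels of this machinery differed after a day of hormone.

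No member moved far. At a ratio of at least 1.5 in either direction, with a present call on the brighter array, 0 of the 26 probe sets were higher and 0 were lower with T3, where the same rule took 2.43% of all probe sets as higher and 1.56% as lower. After quantile normalization of the arrays that background was 1.95% higher and 1.96% lower, and after loess 2.07% and 1.83%, still with 0 members in each direction. Those shares correspond to less than 1 of 26 probe sets in each direction, so the zeros do not set the members apart. The authors' deposited tables of probe sets selected at 1.5-fold and 2-fold held 0 member probe sets. Of the 26, 16 were present on both arrays, 6 on a single array and 4 on neither. The 16 had ratios of T3 to control signal from 0.739 to 1.23, and a median log2 ratio of -0.05, beside -0.01 over the 16524 probe sets present on both arrays.

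**Figure D1:**
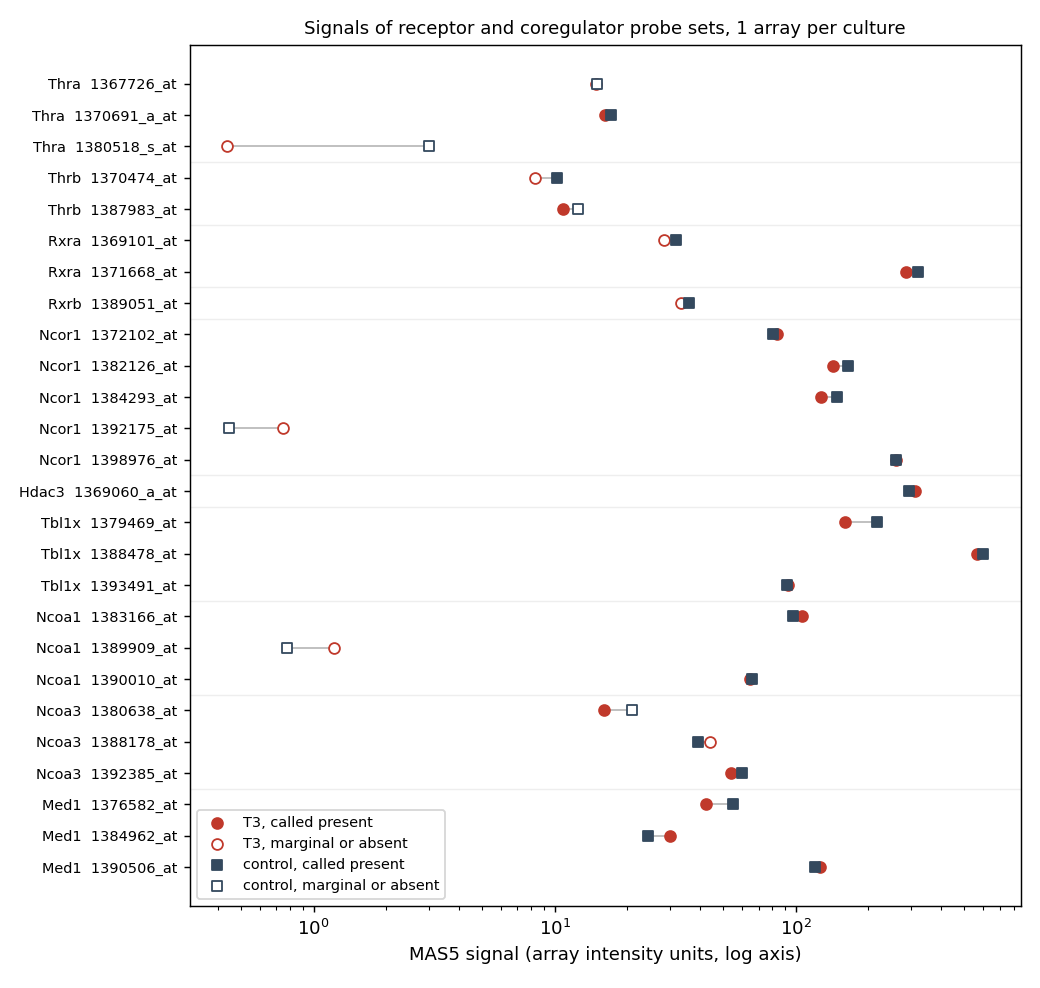
MAS5 signal (array intensity units, log axis) of all 26 member probe sets on the T3 array (red circles) and the control array (dark squares), 1 array each. Filled symbols were called present and open ones marginal or absent. Apart from 3 probe sets with signals under 4 that were absent on both arrays, the symbols of a pair lie close together.

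The probe sets of Thra and Thrb were barely detected. Signals also depend on the probes, so this does not show that the RNA of these genes was scarce. Thra, the alpha receptor gene, has 3 probe sets. The one called present on both arrays, 1370691_a_at, had a signal of 16.1 with T3 and 17.1 in control, a ratio of 0.945. Its detection p-values were 0.0376 with T3 and 0.0461 in control, and 0.0461 was the highest that any present call on these arrays reached. A second probe set, 1367726_at, was absent on both arrays, with nearly equal signals of 14.9 in each culture and detection p-values of 0.0806 with T3 and 0.0676 in control. The last, 1380518_s_at, was absent on both with signals of 0.439 with T3 and 3.01 in control, so it has no fold. The files do not say which splice form of Thra a probe set reads, and not all of its splice products bind T3.

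For Thrb, the beta receptor gene, the calls crossed. Probe set 1370474_at was absent with T3 at 8.30 and present in control at 10.2. Its signal was thus 1.23-fold lower with T3, which with 1 array per culture sets no minimum for the change. Probe set 1387983_at was present with T3 at 10.8 and absent in control at 12.4, so the array that called it present was the dimmer one and no fold is given. The detection p-values of Thrb lay between 0.0376 and 0.112. The absent probe sets of the whole array had a median signal of 4.32 with T3 and 3.91 in control, so the Thra and Thrb signals stood above these medians, except in 1380518_s_at of Thra, which lay below them. The 500 probe sets nearest in signal to 1370691_a_at and present on both arrays had ratios of which the central 95% ran from 0.607 to 1.83. A change of the Thra level smaller than that would not stand out from the spread of like probe sets, and for Thrb the corresponding range was wider still, from 0.531 to 2.21 at the dimmer probe set.

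The start regions of Thra and Thrb are shown because receptors of this family bind the hexamer AGGTCA, and these 2 genes encode the receptors. Sequences are from RefSeq on rat assembly GRCr8, which is used for sequence only, since the files name no build. Each line gives the 150 bases before an annotated transcription start, 5′ to 3′, with CpG dinucleotides in capitals. The Thra window lies at chr10:84197991-84198140 on the plus strand and the Thrb window at chr15:10461447-10461596 on the minus strand.
Thra: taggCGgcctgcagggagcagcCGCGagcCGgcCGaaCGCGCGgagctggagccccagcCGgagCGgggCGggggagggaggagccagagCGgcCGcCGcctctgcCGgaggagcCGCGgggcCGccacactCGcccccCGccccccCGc
Thrb: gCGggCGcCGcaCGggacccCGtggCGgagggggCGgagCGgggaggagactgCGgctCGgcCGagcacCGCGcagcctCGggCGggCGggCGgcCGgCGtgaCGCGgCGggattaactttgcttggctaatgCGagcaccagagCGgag

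Both windows are rich in G and C, at 82.7% for Thra and 76.7% for Thrb, with 21 and 24 CpG dinucleotides. Windows from 250 bases before to 50 after the start were found for 8 of the 10 members, 9 windows in all because Thra has a second annotated start. Their G and C content had a median of 74.0% and ran from 39.0% for Tbl1x to 84.7% for Rxra, beside a median of 51.7% over all 33469 windows of the table. The second Thra window had 46.3%. AGGTCA on either strand was in 0 of the 9 member windows and in 16.2% of all windows. The paired form with a spacer of 4 bases, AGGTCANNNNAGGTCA on either strand, each match of which also holds AGGTCA, was in 0 of the 9 and in 2 of all windows. These letters are therefore not in these windows, which says nothing of sites elsewhere in the genes.

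In the RefSeq gene table Thra overlaps a gene on each side, Med24 and Nr1d1. Nr1d1 encodes the clock repressor REV-ERB alpha and is known to be transcribed from the opposite strand. Its probe set, present on both arrays, had signals of 33.8 with T3 and 24.2 in control, a ratio of 1.40. Med24, a Mediator subunit gene, had 235 with T3 and 215 in control, a ratio of 1.09. Neither passed 1.5-fold, and whether overlapping transcripts add to the Thra signals was not tested.

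The RXR genes lay slightly below control in each of their probe sets. Rxra, the main liver RXR, was well detected by probe set 1371668_at, with 285 with T3 and 321 in control, a ratio of 0.888. Its neighbours in signal had a central 95% from 0.845 to 1.24, and 9.2% of them had a lower ratio. The dimmer Rxra probe set 1369101_at was absent with T3 at 28.5 and present in control at 31.8, a signal 1.11-fold lower. Rxrb, the broadly expressed RXR gene, has 1 probe set. It was absent with T3 at 33.2 and present in control at 36.1, a signal 1.09-fold lower. Thus all 6 detected probe sets of the 4 receptor genes were below control, with a median log2 ratio of -0.16, and every one lay inside the central 95% of its neighbours. The neighbours were all present on both arrays, but only 2 of these 6 were. The 6 include 1387983_at of Thrb, for which no fold is given. Of the 18332 probe sets of the whole array with a present call in either culture, 50.9% were below control. With 1 array per culture a shift of this size cannot be told apart from a difference between the arrays or the cultures.

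**Figure D2:**
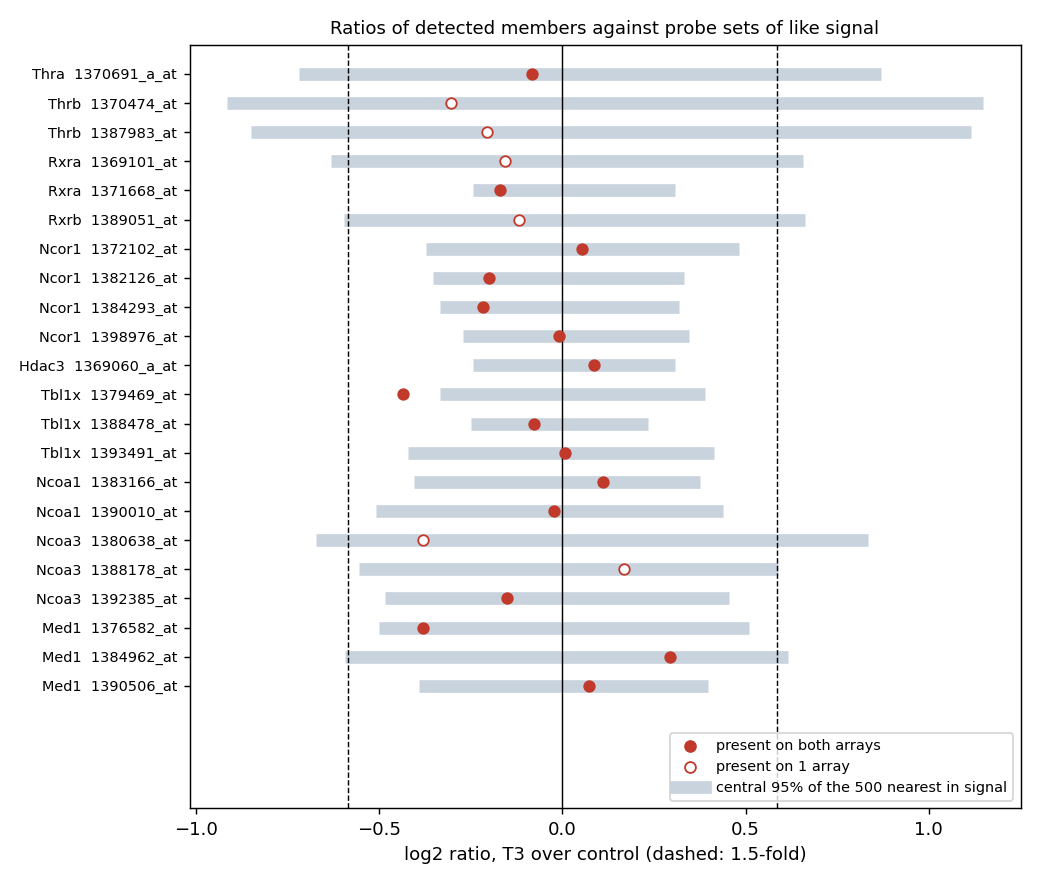
Log2 ratio of T3 over control for the 22 member probe sets present on at least 1 array, with filled points present on both arrays and open points on a single array. Grey bars span the central 95% of ratios of the 500 probe sets nearest in signal among those present on both arrays. Dashed lines mark 1.5-fold, and 1 probe set of Tbl1x lies outside its bar.

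The corepressor complex genes were all detected, and their levels were close in both cultures apart from a single probe set of Tbl1x. Hdac3, the histone deacetylase that Ncor1 activates, had 312 with T3 and 294 in control, a ratio of 1.06. Ncor1, the scaffold, has 5 probe sets, of which 4 were present on both arrays. The brightest, 1398976_at, had 259 with T3 and 261 in control, a ratio of 0.993. Probe set 1382126_at had 143 with T3 and 164 in control, and 1384293_at had 128 with T3 and 148 in control, ratios of 0.871 and 0.860. Probe set 1372102_at went the other way, with 83.1 with T3 and 80.1 in control. The fifth, 1392175_at, was absent on both arrays with signals under 1. The Ncor1 probe sets thus did not share a direction, and the sign of the brightest one turned under loess (log2 ratio 0.00) and quantile normalization (0.01).

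Tbl1x, which encodes a WD-repeat subunit of the complex, gave different answers in its probe sets. The brightest, 1388478_at, had 564 with T3 and 596 in control, a ratio of 0.947. Probe set 1393491_at was level, with 92.3 with T3 and 91.9 in control. Probe set 1379469_at had 160 with T3 and 217 in control, a ratio of 0.739, the lowest among the 16 member probe sets present on both arrays. Its neighbours in signal had a central 95% from 0.793 to 1.31, and 0.8% of them had a lower ratio. It was the 1 of the 16 outside that range (6.25%), where the range leaves out 5% of probe sets by construction. The other Tbl1x probe sets, at 0.947 and 1.005, lay inside their ranges, so the larger difference rests on a single probe set.

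Among the coactivators, Ncoa1 (SRC-1) was present in 2 of its 3 probe sets. Probe set 1383166_at had 106 with T3 and 97.8 in control, a ratio of 1.08, and 1390010_at had 64.6 with T3 and 65.6 in control, a ratio of 0.985. The remaining one, 1389909_at, was absent on both arrays at signals under 1.5. Ncoa3 (SRC-3), a coactivator that also serves other nuclear receptors, was present on both arrays in 1 of 3 probe sets, 1392385_at, with 54.1 with T3 and 60.0 in control, a ratio of 0.901. Its probe set 1380638_at was present with T3 at 16.01 and marginal in control at 20.9, and 1388178_at was absent with T3 at 44.2 and present in control at 39.3. In both the array with the present call was the dimmer one, so neither has a fold, and their signals lay on opposite sides of control.

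Med1, the Mediator subunit that contacts nuclear receptors, was present on both arrays in its 3 probe sets, and they disagreed. Probe set 1390506_at, the brightest, had 126 with T3 and 120 in control, a ratio of 1.05. Probe set 1376582_at had 42.3 with T3 and 55.1 in control, a ratio of 0.768, while 1384962_at had 30.0 with T3 and 24.5 in control, a ratio of 1.23. These are the widest differences in both directions among the 6 probe sets of Ncoa1, Ncoa3 and Med1 present on both arrays. Both lay inside the range of their neighbours, 0.707 to 1.42 and 0.662 to 1.53.

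At a lower limit of 1.2-fold with a present call on the brighter array, 1 of the 26 member probe sets was higher and 3 were lower, against 7.75% of all probe sets higher and 6.55% lower. The higher one was 1384962_at of Med1, and the lower ones were 1376582_at of Med1, 1379469_at of Tbl1x and 1370474_at of Thrb. These shares are near the background, and Med1 stands on both sides. Of the 7 members with at least 2 detected probe sets, 5 had signals on both sides of control, whatever the size of the difference. Thrb and Rxra did not. Ncoa3 lay above control only in a probe set without a fold, and Tbl1x only in its level probe set, at a ratio of 1.005. Thrb was likewise counted with a probe set that has no fold. The share over all genes with several detected probe sets was not computed, so this count has no background to be read against.

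**Figure D3:**
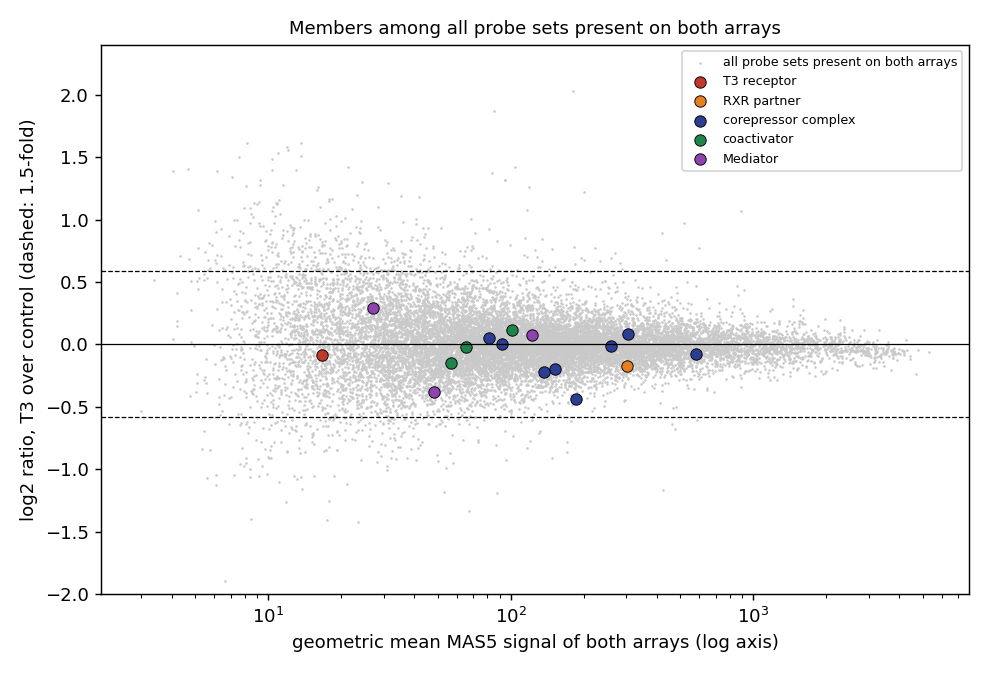
Log2 ratio of T3 over control against the geometric mean MAS5 signal (log axis) for probe sets present on both arrays, in grey, with the 16 member probe sets coloured by role and dashed lines at 1.5-fold. The members lie within the grey cloud, which narrows as signal rises; 1 grey probe set lies beyond the drawn range.

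Nearly all genes of the wider machinery also lay within 1.5-fold when each was represented by its brightest detected probe set. Of 87 coregulator genes listed, 80 are named on the array and 75 were detected. They include the member coregulators but not Thra, Thrb, Rxra or Rxrb. Past 1.5-fold 1 was higher and 0 were lower, where 2.81% of the 9670 genes with a detected probe set were higher and 1.68% lower. The median log2 ratio of the 75 was -0.01, beside 0.00 over all genes, with 36 above and 39 below 0. The higher gene was Arid1b, a DNA-binding subunit of the SWI/SNF chromatin remodelling complex, with 86.4 with T3 and 50.4 in control, a ratio of 1.71. The other Arid1b probe sets were absent on both arrays.

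Among 13 detected corepressor and deacetylase genes 4 were above and 9 below control, with a median log2 ratio of -0.02 and 0 past 1.5-fold. The class IIa deacetylase gene Hdac5 was highest of the brighter ones, at 135 with T3 and 99.1 in control, a ratio of 1.36, and a dimmer Hdac5 probe set gave 1.08. Hdac1, a catalytic subunit of other corepressor complexes, was lowest, at 289 with T3 and 315 in control, a ratio of 0.917.

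Of 22 detected genes on the coactivator and acetyltransferase list 9 were above and 13 below control, with a median log2 ratio of -0.05 and 0 past 1.5-fold. The histone methyltransferase gene Nsd1 was highest of the brighter ones at 199 with T3 and 176 in control, a ratio of 1.13, though its other probe sets gave 1.02 and 0.892. Ncoa5 was lowest of these, at 101 with T3 and 117 in control, a ratio of 0.864, and its other detected probe set gave 0.841. The dimmer Trip11, named after its values were seen, had 29.3 with T3 and 43.3 in control, a ratio of 0.677 just inside the limit. Any other Trip11 probe sets are not given, and no range of like-signal probe sets was computed for it. The list is broad. It also holds Trip12, Trip13, Psmc3 and Psmc5, and whether these and Trip11 act as coactivators was not tested.

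In Mediator, 28 of 31 genes are named on the array, and all 28 were detected, 18 above and 10 below control, with a median log2 ratio of 0.03 and 0 past 1.5-fold. Med22, a head-module subunit gene with 1 probe set, had 149 with T3 and 102 in control, a ratio of 1.46. Med14, the backbone subunit gene, was lowest of the brighter ones at 211 with T3 and 226 in control, a ratio of 0.934, and a dimmer probe set gave 1.13. Below that brightness Med12, a kinase-module subunit gene named after its values were seen, had 63.97 with T3 and 89.8 in control, a ratio of 0.712, the lowest of the list. Any other Med12 probe sets are not given, and no range of like-signal probe sets was computed for it. The SWI/SNF list had 12 of 12 genes detected, 5 above and 7 below control, and a median of -0.01. Besides Arid1b, Smarcd2 was at 111 with T3 and 109 in control and Smarce1 at 783 with T3 and 883 in control, a ratio of 0.887, with other Smarce1 probe sets at 0.887 and 0.716.

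**Figure D4:**
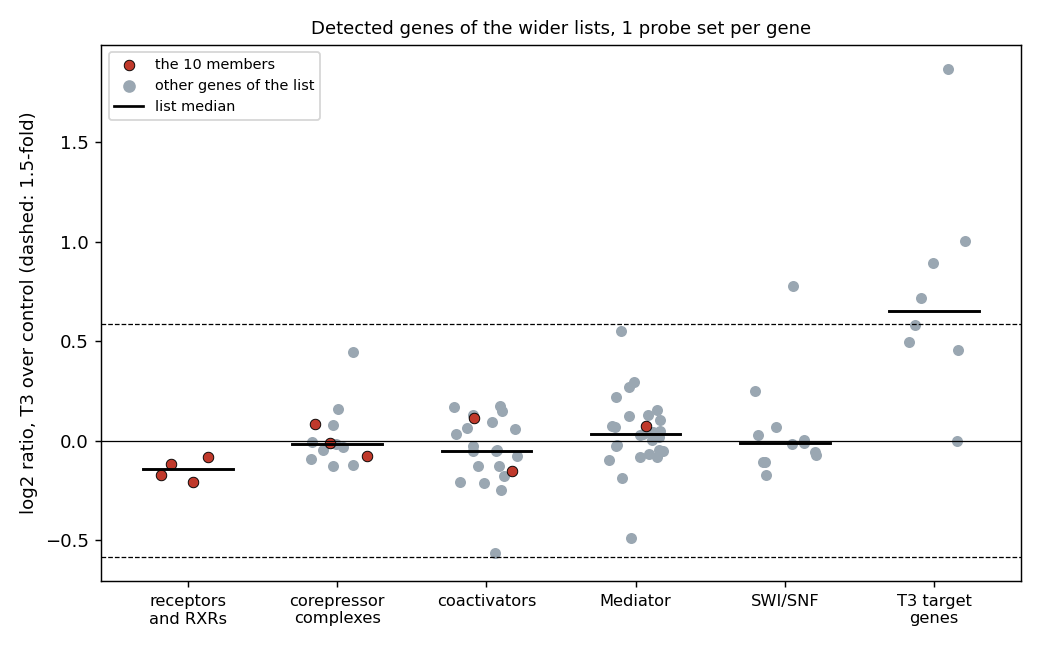
Log2 ratio of T3 over control of the detected genes of each list, 1 probe set per gene, with the 10 members in red, list medians as black bars and dashed lines at 1.5-fold. Arid1b is the 1 coregulator above the upper line, while 4 of 8 T3 target genes, from a list chosen with earlier results known, lie above it.

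The same arrays showed differences in genes the receptors act on. Of 10 listed T3 target genes 8 were detected and 4 were past 1.5-fold and higher, with a median log2 ratio of 0.65. Of all genes 2.81% were higher. The list was chosen with earlier results of these data known, so its excess over that share is not independent evidence. With a pseudocount of 16 the higher target genes were 3, with a median of 0.50, and with one of 64 they were 2, with 0.36. With median centring they were 5, with a median of 0.66. Klf9, a zinc-finger transcription factor, had 575 with T3 and 309 in control, while the malic enzyme gene Me1 was level at 642 with T3 and 643 in control. Rxrg, the remaining RXR gene, had no detected probe set. The 4 detected receptor genes had a median log2 ratio of -0.14, in which Thrb is represented by 1387983_at, the probe set without a fold.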

How the data were processed

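RNA of 1 T3-treated and 1 control culture was measured on Affymetrix arrays. Per the file headers, the authors deposited a MAS5 signal intensity after normalization, a detection p-value and call, and the ratio of T3 to control intensity for each probe set; Affymetrix Expression Console is the tool in the submitters' processing notes, and neither a scaling target nor a genome build is stated there. The deposited detection calls are letters, not measurements on another scale. The deposited ratio equalled the quotient of the signals, and the deposited series value table held the same intensities for 31095 of 31095 probe sets within 1e-06 of their value.

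From these, 57 array controls were left out, and log2 ratios were computed with no pseudocount (Python 3.11.15, pandas 2.3.3, numpy 2.4.6, statsmodels 0.14.6). A positive value is higher with T3. A probe set present on a single array has a fold, the present signal over the signal of the other array. Where the other signal lay under that array's lowest present signal (1.71 with T3, 2.07 in control), the latter would replace it. The fold is given only where it is at least 1, and it sets no minimum for the change. Each ratio was set beside those of the 500 probe sets nearest in geometric mean signal among those present on both arrays. This describes these 2 arrays only. Genes of the wider lists were named by gene number through the GRCr8 gene table (19169 probe sets named). Every probe set of the members is described; of other genes, those past 1.5-fold, and otherwise the highest and lowest of each list among genes whose geometric mean signal reached 104. Of the targets only Klf9 and, chosen after its values were seen, Me1 are given. Trip11, Med12 and the neighbours of Thra were likewise added. The calculations were tested on simulated data, with changes far past 1.5-fold planted in probe sets present on both arrays. That test does not cover changes near the threshold, the wider spread of dim probe sets or probe sets present on a single array. The members and lists were chosen with earlier results of these data known. Alternatives covered pseudocount, normalization, detection, threshold and choice of probe set.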

Additional observations from a re-analysis of the deposited data

How the results depend on the processing

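With 1 array per group, no alternative can supply the missing replicates, and no paired analysis was possible because each group has 1 array and no test. No member probe set passed 1.5-fold with pseudocounts of 16 or 64, median centring, loess, quantile normalization, the series value table, present calls on both arrays or a threshold of 2. Without a detection filter 2 were higher and 1 lower, all absent on both arrays; at 1.2-fold 1 was higher and 3 lower. The median log2 ratio of detected member probe sets, -0.10, was -0.035 with a pseudocount of 64, -0.05 with present calls on both arrays and -0.14 with quantile normalization. Among all coregulators, genes past 1.5-fold and higher, 1 otherwise, numbered 4 when absent probe sets were admitted and 0 at a pseudocount of 64; genes lower, 0 otherwise, were 1 with quantile normalization. The shares of all probe sets higher and lower were 0.383% and 0.200% at a pseudocount of 16, 0.0548% and 0.0226% at 64, 1.37% and 0.722% with present calls on both arrays, 15.7% and 11.8% with absent probe sets admitted, 0.754% and 0.519% at 2-fold, and 7.75% and 6.55% at 1.2-fold. Representing a gene by its most changed probe set gave log2 ratios of -0.22 for Ncor1, -0.38 for Med1 and -0.44 for Tbl1x, against -0.01, 0.07 and -0.08 for the brightest one; leaving out probe sets with a suffix for alternative or shared transcripts left no value for Thra and Hdac3, whose only detected probe sets carry the one for alternative transcripts of a gene. Among the alternatives run per gene (pseudocount, normalization, series value table and choice of probe set), those that gave a value kept the sign of the member gene's log2 ratio, except loess and quantile normalization for Ncor1 and the most changed probe set for Med1.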
